A study of Mus musculus with 4 samples.

Results

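Retinoid uptake and retinoic acid synthesis were described through 9 genes: Scarb1, Bco1, Isx, Rbp2, Lrat, Rdh7, Aldh1a1, Aldh1a2 and Aldh1a3. They were taken by gene symbol from transcript tables that listed 55203 genes, and the level of a gene was the sum over its transcripts. The 9 genes held 34 of the 141738 transcripts, and all 34 estimates had the status OK in every library. The tissue was intestine of wild-type adult male C57BL/6NTac mice, 8 to 12 weeks of age and free of specific pathogens (SPF). Of the 4 RNA-seq libraries, 2 carried the label RVC, for ribonucleoside vanadyl complex, a ribonuclease inhibitor used here at 4 mM, and 2 the label fresh frozen. The same protocol text, a rinse of the tissue in RVC, stood beside both groups, so only the label tells how fresh-frozen tissue was handled. The labels do not say whether libraries of a group came from separate mice, so p-values measure the spread between these libraries, which may be technical.

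Vitamin A reaches the enterocyte as carotenoids or as retinol released from retinyl esters. Carotenoids enter through the scavenger receptor SR-BI (Scarb1) and are cleaved to retinal by beta-carotene oxygenase (Bco1), and the homeobox factor ISX, itself induced by retinoic acid, represses both of these genes in the small intestine. The cellular retinol-binding protein RBP2 carries retinol and retinal to lecithin:retinol acyltransferase (Lrat), which makes retinyl esters for export in chylomicrons. Retinol dehydrogenases such as Rdh7 oxidise retinol to retinal, and the retinaldehyde dehydrogenases Aldh1a1, Aldh1a2 and Aldh1a3 oxidise retinal to retinoic acid, the ligand of the RAR receptors. In the gut, retinoic acid made by epithelium, stroma and dendritic cells directs lymphocyte homing and barrier function.

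Sample labels gave the tissue as ileum, but distal colon was named in the protocol and in the design text. Levels were deposited as FPKM, fragments scaled by transcript length and by the mapped fragments of a library, so genes can be set side by side. Of 8 colon genes, all 8 were at 1 FPKM or more in every library, and their summed level was between 5103 and 7722 FPKM. Of 7 small intestine genes listed in the files, 3 reached 1 FPKM in every library, the sum ran from 21.1 to 49.6 FPKM, and Apoa4 and Fgf15 were listed at 0 throughout. The number of reads per library is unknown. Relative depth, read from coverage per FPKM, was 72.6% to 81.8% of that of fresh frozen 2 in the other libraries. Each library also carried a batch number of its own, and the effects of batch and of group cannot be told apart.

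The binding protein gene Rbp2 (ENSMUSG00000032454, chromosome 9, 98368168 to 98391834, plus strand, GRCm39) was by far the most abundant of the 9 genes. Its level was 88.2 and 92.7 FPKM in RVC 1 and RVC 2, and 61.4 and 63.8 in the fresh-frozen libraries 1 and 2, without overlap between the groups. Its mean of 76.5 ± 16.2 FPKM (SD, n = 4) was 4.62 times that of Aldh1a1, the next gene in the order, and exceeded 93.6% of the genes at a mean of 1 FPKM or more. Rbp2 alone made up 70.5% to 78.0% of the summed FPKM of the 9 genes in a library.

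Aldh1a1 followed at 16.6 ± 0.803 FPKM (SD, n = 4), then Scarb1 at 3.51 ± 0.579, Aldh1a2 at 2.45 ± 0.348, Aldh1a3 at 1.31 ± 0.272, Isx at 1.23 ± 0.870 and Bco1 at 1.14 ± 0.197. Lrat, at 0.199 ± 0.0577 FPKM, and Rdh7, at 0.0990 ± 0.0433, were the lowest. The range of Rbp2 over the 4 libraries was clear of that of Aldh1a1, and the range of Aldh1a1 of that of Scarb1. Scarb1 and Aldh1a2 overlapped, as did Aldh1a3, Isx and Bco1 among themselves and Lrat with Rdh7, so their order within those groups is not fixed by these libraries.

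**Figure D1:**
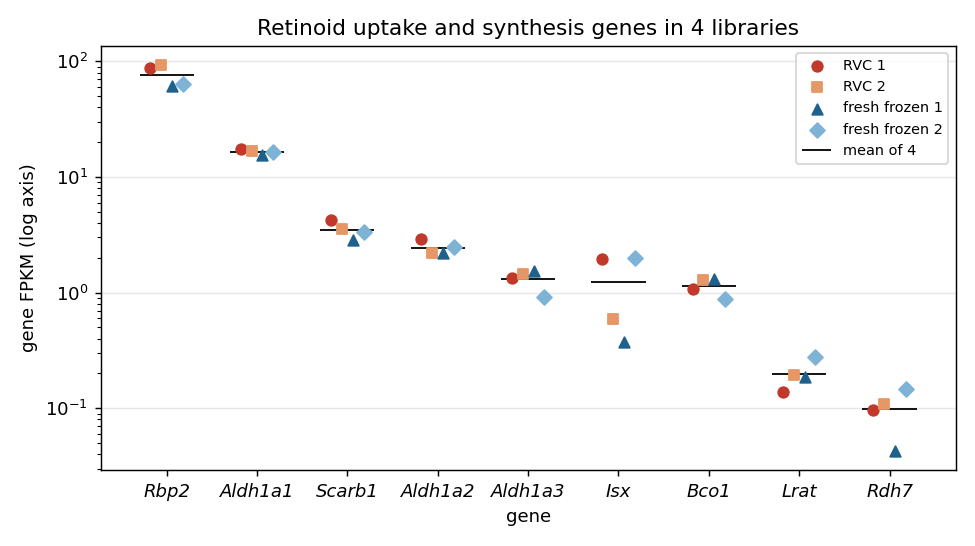
Gene FPKM on a log axis for the 9 genes, ordered by mean, with 1 point per library and a line at the mean of the 4 libraries. Rbp2 lies at 61.4 to 92.7 FPKM with both RVC points above both fresh-frozen points, and Isx shows the widest relative spread, from 0.372 to 2.01 FPKM.

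Transcripts of Rbp2 were grouped under an upstream and a downstream start, 4422 bases apart in the deposited annotation. A 291-nt transcript that begins farther on, at 98373750, was counted with the downstream start, at 0.384 to 1.06 FPKM. The sequence before the downstream start in the GRCm39 genome is shown because most of the signal came from there. The line gives the 250 bases that end just before that start in GENCODE vM39, read 5′ to 3′ on the plus strand. Capitals mark matches, on either strand, to the TATA box TATAAA and to AGGTCA, the core motif bound by nuclear receptors. A CDX factor motif, TTTATG, was searched as well. The window is chr9:98372326-98372575.
Rbp2 downstream start: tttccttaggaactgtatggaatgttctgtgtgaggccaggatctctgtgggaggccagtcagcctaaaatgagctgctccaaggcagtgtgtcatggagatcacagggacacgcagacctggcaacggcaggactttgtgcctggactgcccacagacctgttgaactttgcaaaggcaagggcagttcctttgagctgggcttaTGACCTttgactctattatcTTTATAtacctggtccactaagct

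This window held 1 match to each of the first 2 motifs, both on the reverse strand: AGGTCA from position -44 and TATAAA from position -24, counted back from the start. TTTATG was not in this window. Among 32851 RefSeq promoters (GRCm38.p6), read over the same 250 bases before the start, 12.4% held TATAAA, 14.0% held AGGTCA and 10.8% held TTTATG on either strand. These matches describe the letters only.

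Nearly all Rbp2 signal came from the downstream start. Its 672-nt coding transcript (ENSMUST00000035029) measured 84.4 FPKM in RVC 1 (Cufflinks bounds 78.2 to 90.6) and 87.1 in RVC 2 (80.7 to 93.5). The fresh-frozen values were 59.4 in library 1 (54.3 to 64.5) and 61.6 in library 2 (57.0 to 66.3). The bounds of both RVC libraries lay above those of both fresh-frozen libraries. Each bound was set within a single library, so the bounds do not measure the spread between libraries. The 803-nt coding transcript of the upstream start (ENSMUST00000189446) measured 3.24 and 4.60 FPKM in RVC 1 and RVC 2, and 1.19 and 1.09 in the fresh-frozen libraries 1 and 2. Its bounds were 2.07 to 4.40 and 3.20 to 6.00 in RVC and 0.449 to 1.94 and 0.480 to 1.70 in fresh frozen, again without overlap between groups. With a 611-nt transcript that reached 0.635 FPKM in fresh frozen 2 and was near 0 elsewhere, the upstream start held 3.67% and 4.96% of Rbp2 in RVC and 1.94% and 2.71% in fresh frozen.

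**Figure D2:**
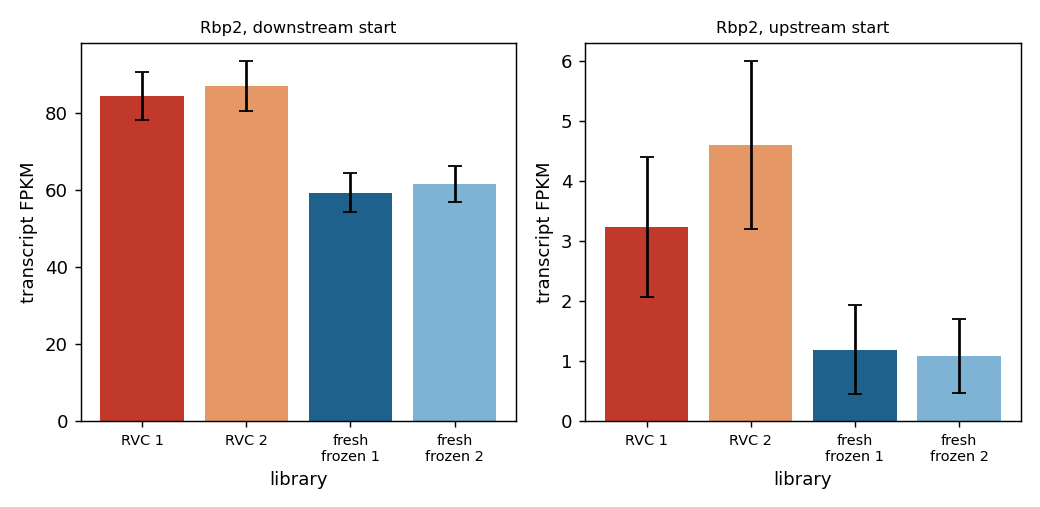
FPKM of the main Rbp2 transcript of each start site in the 4 libraries (bars from 0), with the deposited Cufflinks confidence bounds as error bars. For both transcripts the bounds of the RVC libraries lie above those of the fresh-frozen libraries, and the vertical scales differ between the panels.

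RVC and fresh-frozen libraries were compared gene by gene with limma on log2(scaled FPKM + 1), adjusted over 13771 genes, of which 5 (0.0363%) had an adjusted p under 0.05. Of the 9 retinoid genes, 7 passed the filter of a mean of 1 scaled FPKM, Lrat and Rdh7 did not, and 0 of the 7 were called by limma. At an unadjusted p under 0.05 there was 1, Rbp2, where the share over all genes was 18.4%. Because of the added 1, log2 fold changes come out too small for genes near 1 FPKM.

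The mean of Rbp2 was 90.5 ± 3.20 FPKM for RVC and 62.6 ± 1.63 for the fresh-frozen libraries (SD, n = 2 per group), which is a ratio of 1.44. Limma put the log2 fold change at 0.53 (SE 0.10, 95% interval 0.28 to 0.77), and the adjusted p was 0.129. The difference between groups was larger than the spread within either group, yet it did not pass the adjustment. Transcripts were compared in the same way over 24080 transcripts, of which 1 (0.00415%) was called. Of the 8 transcripts of the 9 genes that were tested, limma called 0. The 2 of Rbp2 had an unadjusted p under 0.05, against 15.6% of all transcripts, and were the 2 with both RVC libraries above both fresh-frozen ones, against 25.4%, or 50.4% without overlap in either direction. The 803-nt upstream transcript had a log2 fold change of 1.18 (SE 0.20, adjusted p 0.194) and the 672-nt downstream transcript one of 0.49 (SE 0.10, adjusted p 0.227). With a pseudocount of 0.1 the value of the upstream transcript was 1.67, at a limma adjusted p of 0.248, within 0.203 to 0.401 over its alternatives. Whether the transcripts of the starts differed from each other in their change was not tested.

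Rbp2 is a gene of absorptive cells. The summed level of 8 absorptive epithelium genes was 8022 and 7015 FPKM in RVC, against 6755 and 5592 in fresh frozen, a ratio of 1.22. The sum weighs abundant genes most. Car4 alone was at 2373 and 1948 FPKM in RVC, against 1626 and 1265 in fresh frozen, a ratio of 1.49. Epcam had a ratio of 1.06, and its groups overlapped. On scaled FPKM, 4 of the 8 genes were higher in RVC without overlap, against 26.5% of all tested genes, and 0 were lower. In either direction 53.2% of all tested genes did not overlap. The log2 fold change was above 0 for 7 of the 8, against 51% of all genes. Car4, at 0.59, was the 1 gene of the 8 with an unadjusted limma p under 0.05, against 18.4%. On deposited FPKM Slc26a3 overlapped as well, and Cdx2 had a log2 fold change of -0.11. Smooth muscle genes, which mark the outer wall, summed to 1089 and 1629 FPKM in RVC and to 666 and 718 in fresh frozen, and all 6 were higher in RVC without overlap, as were 26.5% of all tested genes. The 6 endothelial genes summed to 32.8 and 35.6 against 17.8 and 18.6 FPKM, likewise all higher in RVC without overlap, against the same 26.5%. Of 6 macrophage genes, 4 were higher in RVC without overlap, against 26.5% of all tested genes, and 0 were lower, against 26.6%. Enteroendocrine genes lay the other way. All 5 that were tested had a log2 fold change below 0, and 4 were lower in RVC without overlap, against 26.6% of all genes. None of the genes of these lists was at 0 throughout. The part of these differences in the result for Rbp2 was not tested, and in whole tissue fewer cells of a type and less RNA per cell cannot be told apart.

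Carotenoid uptake and cleavage genes were low. Scarb1 (ENSMUSG00000037936, chromosome 5, 125354151 to 125418158, minus strand) measured 4.25 and 3.59 FPKM in RVC 1 and RVC 2, and 2.86 and 3.36 in the fresh-frozen libraries 1 and 2. Both RVC values lay above both fresh-frozen values. The log2 fold change was 0.26 (SE 0.15, 95% interval -0.09 to 0.61; limma adjusted p 0.373). The main Scarb1 transcript, 2521 nt long with 13 exons, measured 2.19 to 3.40 FPKM, and its groups overlapped. Of the 7 tested genes, 3 (Scarb1, Rbp2 and Aldh1a1) had both RVC libraries above both fresh-frozen libraries, whereas 26.5% of all tested genes did, and 0 lay the other way, against 26.6%. In either direction the groups of 53.2% of all tested genes did not overlap. Such an arrangement reaches an exact permutation p of 0.333 at best with 2 libraries against 2.

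Bco1 (ENSMUSG00000031845, chromosome 8, 117822593 to 117860459, plus strand) measured 1.08 and 1.29 FPKM in RVC 1 and RVC 2, and 1.30 and 0.887 in the fresh-frozen libraries 1 and 2. The groups overlapped, with a log2 fold change of 0.07 (SE 0.17, 95% interval -0.33 to 0.47; limma adjusted p 0.842). The Cufflinks bounds of its 2338-nt transcript, 0.662 to 1.11 in fresh frozen 2 and 0.986 to 1.60 in RVC 2, overlapped in all pairs of libraries, so the 4 values cannot be separated at this depth.

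Isx (ENSMUSG00000031621, chromosome 8, 75599801 to 75620134, plus strand) differed more within the groups than between them. RVC 1 had 1.95 FPKM and RVC 2 0.596, while fresh frozen 1 had 0.372 and fresh frozen 2 had 2.01. The highest library was 5.41 times the lowest, the widest ratio among the 9 genes, with Rdh7 next at 3.45. Nearly all of it came from the 1793-nt coding transcript, whose bounds were 1.52 to 2.38 in RVC 1 and 1.62 to 2.41 in fresh frozen 2, and 0.355 to 0.837 in RVC 2 and 0.174 to 0.571 in fresh frozen 1. The high and the low libraries were therefore separate beyond the Cufflinks bounds, 1 of each in either group. The log2 fold change between groups was 0.09 with a wide 95% interval of -0.87 to 1.06 (limma adjusted p 0.923). In the libraries with more Isx, Bco1 was at 1.08 and 0.887 FPKM, and in those with less at 1.29 and 1.30, a difference within the bounds above. Scarb1, the other gene under ISX, was at 4.25 and 3.36 FPKM in the libraries with more Isx. It was at 3.59 and 2.86 FPKM in those with less, so its values overlapped.

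The posterior homeobox gene Hoxd13, which marks the distal hindgut, was distributed the other way, at 9.59 and 26.0 FPKM in RVC 1 and RVC 2, and 39.5 and 5.68 in the fresh-frozen libraries 1 and 2. Hoxd13 and the other segment genes named here were singled out after their values were seen. Other posterior genes did not show this split: Hoxa13 stayed between 20.5 and 22.2 FPKM, and Hoxb13 between 98.5 and 133 with its lowest value in fresh frozen 2. Fabp2, a small intestinal fatty acid binding protein gene, was at 43.7 FPKM in fresh frozen 2 and at 14.5 to 16.8 in the other libraries. With 4 libraries no correlation was computed, and the part of position along the gut in the level of Isx was not tested.

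**Figure D3:**
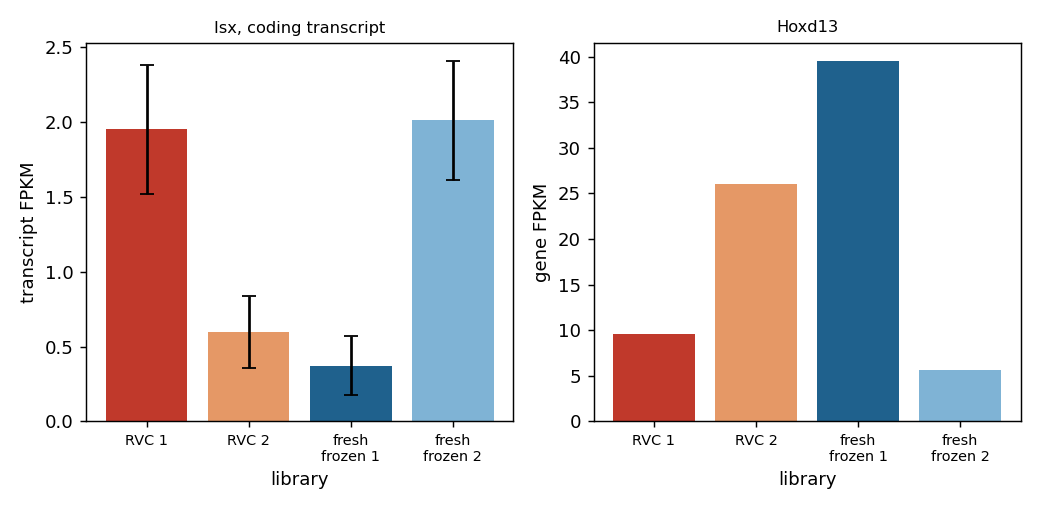
Left, FPKM of the coding Isx transcript in the 4 libraries with the deposited Cufflinks bounds as error bars; right, gene FPKM of Hoxd13 in the same libraries (bars from 0). Isx is high in RVC 1 and fresh frozen 2, at 1.95 and 2.01 FPKM, where Hoxd13 is low, at 9.59 and 5.68 FPKM.

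Lrat (ENSMUSG00000028003, chromosome 3, 82799886 to 82811280, minus strand) measured 0.140 and 0.193 FPKM in RVC 1 and RVC 2, and 0.186 and 0.278 in the fresh-frozen libraries 1 and 2. Its lower Cufflinks bounds were above 0 in every library, from 0.0772 upward, so a low signal was present in all 4, and the groups overlapped. Of the other acyltransferases that can esterify retinol, Dgat1 was at 12.9 ± 1.08 FPKM (SD, n = 4), and Mogat2 and Awat2 were at 0.222 ± 0.102 and 0.103 ± 0.0918.

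Rdh7 (ENSMUSG00000040134, chromosome 10, 127719897 to 127724686, minus strand) was barely detected. It measured 0.0971 and 0.109 FPKM in RVC 1 and RVC 2, and 0.0427 and 0.148 in the fresh-frozen libraries 1 and 2, and the lower bound of its 1678-nt transcript was 0 in all but fresh frozen 2, where it was 0.0262. Both the highest and the lowest value were from fresh-frozen libraries. It lies on chromosome 10 with close relatives, 2 of which were abundant. Rdh9 measured 35.2 ± 6.47 FPKM and Rdh16 29.97 ± 5.39 (SD, n = 4). Within a library Rdh9 was 237 to 651 times Rdh7. Rdh16f1 (2.52 FPKM), Rdh19 (0.956), Rdh16f2 (0.511) and Rdh1 (0.164) lay between them.

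Since Cufflinks divides reads among similar transcripts, the first 150 coding bases, the length of a sequenced read, are set side by side for Rdh7 and Rdh9. Capitals mark the 9 bases that differ between the 2 genes. In GRCm39 the stretch lies at chr10:127724333-127724482 on the minus strand for Rdh7 and at chr10:127612354-127612503 on the plus strand for Rdh9, each within a coding exon.
Rdh7: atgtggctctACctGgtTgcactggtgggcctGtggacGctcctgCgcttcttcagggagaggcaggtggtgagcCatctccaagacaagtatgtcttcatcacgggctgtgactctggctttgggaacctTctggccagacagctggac
Rdh9: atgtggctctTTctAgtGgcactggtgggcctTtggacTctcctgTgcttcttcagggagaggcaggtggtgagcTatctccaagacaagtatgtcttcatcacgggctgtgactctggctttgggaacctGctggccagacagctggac
Over the whole coding sequence Rdh7 was 84.9% identical to Rdh9, 85.8% to Rdh16 and 86.9% to Rdh1. The longest run of identical bases was 71 with Rdh9, 71 with Rdh16 and 133 with Rdh1. Of the 799 windows of 150 coding bases of Rdh7, 0 occurred unaltered in any of the 3. The windows count exact coding matches only and do not show how reads were divided.

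Of the genes for the last step, from retinal to retinoic acid, the most abundant was Aldh1a1 (ENSMUSG00000053279, chromosome 19, 20470079 to 20620829, plus strand). It measured 17.4 and 16.8 FPKM in RVC 1 and RVC 2, and 15.5 and 16.5 in the fresh-frozen libraries 1 and 2. The RVC values were above the fresh-frozen values by a narrow margin. The log2 fold change was 0.09 (SE 0.11, 95% interval -0.17 to 0.35; limma adjusted p 0.667). It was the steadiest of the 9 genes, with the highest library 1.12 times the lowest. Of the summed FPKM of Aldh1a1, Aldh1a2 and Aldh1a3, Aldh1a1 made up 81.5% ± 1.28 (SD, n = 4), Aldh1a2 12.0% ± 1.20 and Aldh1a3 6.47% ± 1.44.

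Most Aldh1a1 signal came from its 2053-nt transcript with 13 exons, at 15.7 and 13.7 FPKM in RVC, against 13.4 and 14.7 in fresh frozen. A further 5 transcripts started far upstream, the first of them 109246 bases before it, and together they held 9.81% and 18.4% of the gene in RVC 1 and RVC 2, and 13.6% and 11.4% in the fresh-frozen libraries 1 and 2. The largest of these, ENSMUST00000225337 (2358 nt, coding), was at 2.26 FPKM in RVC 2 and at 1.20 to 1.51 in the other libraries, and the groups overlapped for both transcripts.

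Aldh1a7, a close relative next to Aldh1a1 on chromosome 19 and on the opposite strand, was at 5.33 and 5.07 FPKM in RVC 1 and RVC 2, and 6.64 and 7.08 in the fresh-frozen libraries 1 and 2. At a log2 fold change of -0.34 (SE 0.12; limma adjusted p 0.224), it lay lower in RVC where Aldh1a1 lay slightly higher. Of all tested genes, 26.6% were lower in RVC without overlap and 26.5% were higher. The ratio of Aldh1a1 to Aldh1a7 was 3.27 and 3.30 in RVC and 2.33 and 2.34 in fresh frozen, a gap far wider than the spread within either group, whereas their sum stayed between 21.8 and 23.6 FPKM. With 2 libraries against 2, an exact permutation test of this ratio cannot go below 0.333. The first 150 coding bases of the 2 genes are given because the division of reads between them bears on this ratio. Capitals mark the 10 bases that differ. In GRCm39 the stretch lies within chr19:20579376-20588360 on the plus strand for Aldh1a1 and within chr19:20704343-20704876 on the minus strand for Aldh1a7, and an intron interrupts it in both.
Aldh1a1: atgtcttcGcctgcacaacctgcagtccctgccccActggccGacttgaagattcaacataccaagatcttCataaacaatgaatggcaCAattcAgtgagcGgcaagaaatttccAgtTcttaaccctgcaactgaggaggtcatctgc
Aldh1a7: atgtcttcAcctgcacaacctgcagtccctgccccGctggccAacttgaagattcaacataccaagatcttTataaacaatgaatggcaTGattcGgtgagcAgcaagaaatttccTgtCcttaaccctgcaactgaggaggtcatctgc
The coding sequences were 91.6% identical over 1503 bases, with a longest identical run of 100 bases, and 0 of 1354 windows of 150 bases of Aldh1a1 occurred unaltered in Aldh1a7. By comparison Aldh1a1 was 67.0% identical to Aldh1a2 and 66.5% to Aldh1a3, with identical runs of at most 20 bases. The windows count exact coding matches only and do not show how reads were divided. Whether the division of reads moved with the group was not tested.

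**Figure D4:**
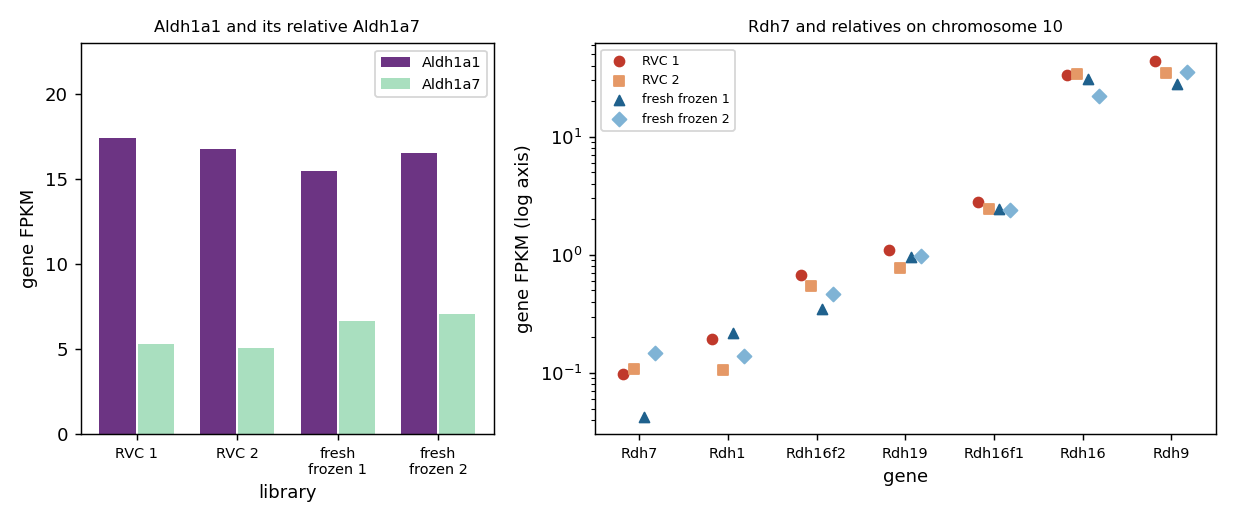
Left, gene FPKM of Aldh1a1 and Aldh1a7 in the 4 libraries (bars from 0); right, gene FPKM on a log axis of Rdh7 and 6 relatives on chromosome 10, with 1 point per library. Aldh1a7 is at 5.07 to 5.33 FPKM in RVC and at 6.64 to 7.08 in fresh frozen, and Rdh7 lies at or below 0.148 FPKM while Rdh9 and Rdh16 lie above 22.

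Aldh1a2 (ENSMUSG00000013584, chromosome 9, 71123071 to 71203525, plus strand), the form typical of stroma, mesothelium and dendritic cells, was listed as 1 transcript of 2264 nt. It measured 2.93 and 2.198 FPKM in RVC 1 and RVC 2, and 2.19 and 2.46 in the fresh-frozen libraries 1 and 2. RVC 1 was the high library and the groups overlapped. The log2 fold change was 0.10 (SE 0.16, 95% interval -0.28 to 0.48; limma adjusted p 0.768). Among its candidate sources, 6 mesothelial genes summed to 19.6 to 25.3 FPKM with the lowest sum in RVC 2, and 6 fibroblast genes to 182 to 216 with the highest there. The 8 dendritic cell genes summed to 1.54 to 2.78 FPKM, none was listed at 0 in all libraries, and 0 of them passed the filter, so their level bore no test. The part of these cells in the level of Aldh1a2 was not tested.

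Aldh1a3 (ENSMUSG00000015134, chromosome 7, 66040638 to 66077265, minus strand) measured 1.34 and 1.44 FPKM in RVC 1 and RVC 2, and 1.54 and 0.922 in the fresh-frozen libraries 1 and 2. The groups overlapped, since the fresh-frozen libraries were the highest and the lowest. Fresh frozen 2 was low through the 3443-nt transcript at 0.424 FPKM (bounds 0.292 to 0.555) where the others had 0.846 to 0.957. The log2 fold change between groups was 0.12 (SE 0.18, 95% interval -0.31 to 0.54; limma adjusted p 0.749). Over the 7 tested genes the median log2 fold change was 0.10, that over all 13771 genes was 0.0066, and each of the 7 was above 0, as were 51% of all genes. The counting was not stated to use strand, and genes annotated on the opposite strand overlap Scarb1, Bco1, Lrat and the 3 Aldh1a genes. Among overlapping genes listed in the files, the highest was Gm37113, on the same strand as Rbp2, at 0.507 to 1.30 FPKM, and the others were at or below 0.333.

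The wider pathway was read from a list of 79 further retinoid genes, of which 44 passed the filter. Limma called 0 of the 44, at an unadjusted p under 0.05 there were 10, 6 higher in RVC (9.38% of all genes) and 4 lower (8.99%), and the median log2 fold change was 0.09. Groups did not overlap for 27 of the 44 (53.2% of all genes), 17 higher in RVC (26.5% of all genes) and 10 lower (26.6% of all genes).

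Among genes of uptake and ester hydrolysis, 8 of 12 were tested. Of these, 6 had a log2 fold change below 0, where 51% of all genes were above it. Lower in RVC without overlap were 5, against 26.6% of all genes. Lrp1, a lipoprotein receptor, was the most abundant at 14.1 ± 2.53 FPKM (SD, n = 4). It was the 1 gene of the 8 higher in RVC without overlap, against 26.5% of all genes. The carboxylesterase genes Ces1f and Ces1d measured 6.46 ± 1.39 and 6.32 ± 1.11 FPKM, and log2 fold changes were -0.46 for Ces1f (limma adjusted p 0.151) and -0.33 for Ces1d (0.244). Ces1 genes are similar neighbours among which reads can be split, so their single values are uncertain.

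Among binding proteins, the circulating carrier Ttr (11.9 ± 4.58 FPKM), the fatty acid and retinoic acid carrier Fabp5 (5.35 ± 1.60) and the plasma retinol carrier Rbp4 (1.93 ± 0.376) were the most abundant, and all 3 stood far below Rbp2. Rbp7, a relative of Rbp2, measured 0.938 ± 0.0780 FPKM. The coding sequence of Rbp2 was 62.7% identical to that of Rbp7, with identical runs of 10 bases or fewer, far shorter than a read.

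Of the retinol-oxidising enzymes, 8 of 17 were tested, and the alcohol dehydrogenase gene Adh1 was the most abundant retinoid gene of all, at 462 ± 54.0 FPKM (SD, n = 4). Its groups overlapped, with a log2 fold change of -0.09 and a limma adjusted p of 0.759. Rdh9 and Rdh16, described above, had log2 fold changes of 0.31 (limma adjusted p 0.346) and 0.35 (0.282). Of 8 enzymes that act on retinal or retinol in the reducing direction or by saturation, Dhrs4 (13.9 FPKM), Rdh14 (13.7) and Retsat (13.1) led. Of the 7 tested, 0 had an unadjusted limma p under 0.05, against 18.4% of all genes. Without overlap, 4 were lower in RVC, against 26.6% of all genes, and 1 was higher, against 26.5%. Among enzymes that break down retinoic acid, Cyp2s1 was at 27.9 ± 5.10 FPKM, whereas Cyp26b1 and Cyp26c1, of the dedicated CYP26 family, were at 0.133 ± 0.0997 and 0.0240 ± 0.0193. Its RVC values were 31.9 and 32.0 FPKM and its fresh-frozen values 26.4 and 21.4, with a log2 fold change of 0.42 and a limma adjusted p of 0.173.

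Receptors and cofactors had 7 of 8 tested genes above 0 in log2 fold change, against 51% of all genes. Of the 8, 4 were higher in RVC without overlap, against 26.5% of all genes, and none was lower. Ppard (42.9 ± 6.88 FPKM), the corepressor gene Ncor1 (34.9 ± 3.41) and Rxra (15.9 ± 2.59) were the most abundant. Rxra, the shared partner of nuclear receptors, was at 19.4 and 16.4 FPKM in RVC, against 14.2 and 13.7 in fresh frozen, with a log2 fold change of 0.34 and a limma adjusted p of 0.220. Rara, named here after its values were seen, measured 7.85 and 7.75 against 5.95 and 5.60 FPKM, with a limma adjusted p of 0.182.

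Of 7 tested genes that respond to retinoic acid in other settings, 6 had a log2 fold change above 0, against 51% of all genes, and 5 were higher in RVC without overlap, against 26.5%. Tgm2, the tissue transglutaminase gene, had RVC values of 10.5 and 11.0 FPKM and fresh-frozen values of 6.72 and 6.93, a log2 fold change of 0.59 (SE 0.12; limma adjusted p 0.129). Asb2 measured 2.61 and 3.39 FPKM against 1.17 and 1.57, a log2 fold change of 0.76 with a limma adjusted p of 0.131. Rarres2, the chemerin gene, measured 44.0 and 45.6 against 35.4 and 33.1 FPKM, with a limma adjusted p of 0.155. Cdx1, an intestinal homeobox gene and direct retinoic acid target in the embryo, was level, with RVC values of 58.1 and 61.3 FPKM and fresh-frozen values of 59.0 and 61.4. Tgm2 and Asb2 are also expressed by endothelium and smooth muscle, whose markers lay higher in RVC as given above, and the part of those cells in these values was not tested.

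**Figure D5:**
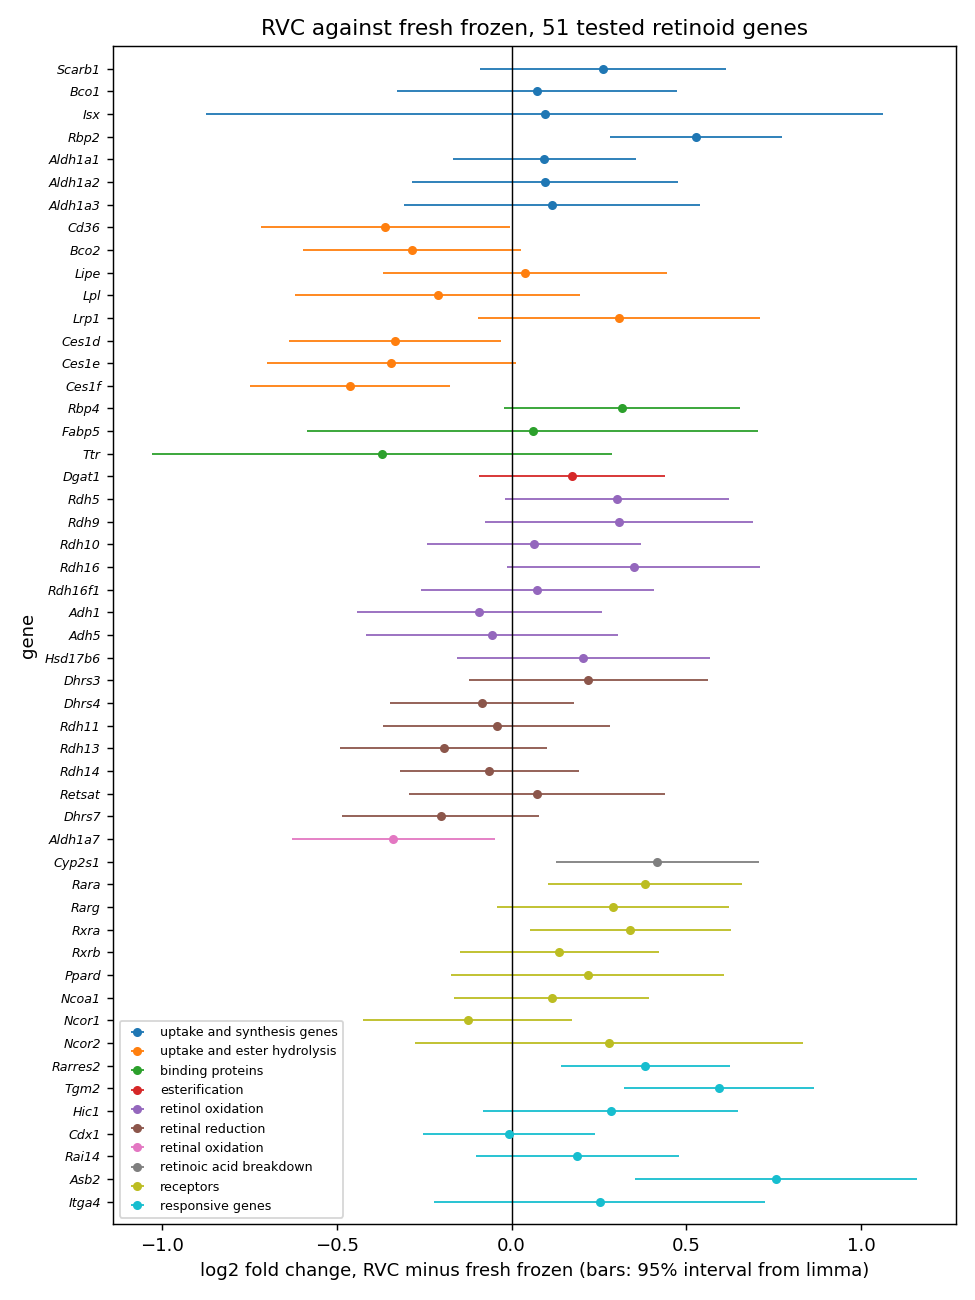
Log2 fold change of RVC against fresh frozen for the 7 tested uptake and synthesis genes and 44 further retinoid genes, grouped by role, with 95% intervals from limma. Before adjustment over all genes, the intervals of Rbp2, at 0.53, and of 10 of the 44 further genes are clear of 0. Such an interval corresponds to an unadjusted limma p under 0.05, which 18.4% of all tested genes have. None of the genes shown has an adjusted p under 0.05 in the limma fit.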

How the data were processed

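Libraries were depleted of ribosomal RNA and sequenced as 150-bp read pairs, per the labels' protocols. TopHat 2.1.1, Cufflinks 2.2.1 and the build GRCm39 were used by the authors, per the submitters' processing notes. The annotation release and any strand setting are not given in the sources used here. The authors deposited FPKM per transcript with confidence bounds and coverage (a signal of read depth per base), per the file headers. FPKM falls for all genes where a few RNAs take more of a library.

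Gene FPKM was summed over transcripts. Libraries were scaled by median ratio (factors 0.992 to 1.01), a pseudocount of 1 was added on the log2 scale, and limma 3.58.1 in R 4.3.3 (trend, two-sided, no covariate, Benjamini-Hochberg threshold 0.05) was fitted to genes with a mean of at least 1, a longest transcript of at least 300 nt and status OK. Levels are deposited FPKM unless called scaled. Coordinates count from 1, and strand, exons and sequences came from GRCm39 with GENCODE vM39. Coding sequences were aligned with Biopython 1.88, and the fit was tested on simulated data.

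The 9 genes and the lists were chosen with earlier results of these data known. Further retinoid genes were named as the 3 most abundant of each role and the 3 with the largest fold change without overlap. Some genes and sequences that these rules name are not reported here. Alternatives covered the pseudocount, scaling, filters, transcript sum, trend, a block on sample number and each library left out.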

Additional observations from a re-analysis of the deposited data

How the results depend on the processing

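Under all 15 alternatives, limma called 0 of the uptake and synthesis genes it tested and 0 of the further retinoid genes. Of the 9, it tested 9 without a filter on low values, 2 at the minimum of 5 FPKM and 6 or 7 otherwise, so Lrat and Rdh7 were tested under 1 alternative. At an unadjusted limma p under 0.05 there were 1 of the former and 5 to 15 of the latter. The log2 fold change of Rbp2 ran from 0.48 to 0.57 and its limma adjusted p from 0.084 (genes of at least 5 FPKM) to 0.402 (no filter on low values). Calls among all genes moved from 5 to 0 without a filter, 14 with the minimum raised to 5 FPKM, 0 without transcripts under 300 nt, 2 for the most abundant transcript and 0 without a trend, where 3531, 1765, 2577, 2380 and 2461 genes had an unadjusted p under 0.05. They ranged from 8 to 40 with a library left out, the lone library of a group being assumed to vary like the other group. Calls among transcripts moved from 1 to 0 without a filter (9176 at an unadjusted limma p under 0.05), 7 without a length minimum and 0 to 0 with a library left out (2134 to 2999). The cause was not tested. Sample numbers are shared between groups but the labels give them no meaning, and same-numbered libraries deviated with r = -0.134 across 13771 genes. With a replicate block 112 genes were called, none of them a retinoid gene of either list, and Rbp2 had a limma adjusted p of 0.105.

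With 1 library left out, the log2 fold change of Isx ran from -0.48 to 0.54, of Aldh1a2 from -0.055 to 0.25, of Bco1 from -0.065 to 0.21 and of Aldh1a3 from -0.080 to 0.31, so the direction of these 4 genes rests on single libraries: fresh frozen 1 for Isx, RVC 1 for Aldh1a2 and fresh frozen 2 for Bco1 and Aldh1a3. Isx fell under the filter without RVC 1 or fresh frozen 2. The share of Aldh1a1 among the 3 dehydrogenases stayed between 81.0% and 81.9%. The most abundant transcript alone gave 2.77 FPKM for Scarb1, 14.4 for Aldh1a1 and 0.770 for Aldh1a3. Without read counts, values under about 1 FPKM are limited by a depth that is unknown.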
